A study of Mus musculus with 6 samples.

Results

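The 10 genes described here are Gbp2, Gbp3, Gbp4, Gbp5 and Gbp7 (guanylate-binding proteins), Irgm1, Igtp and Iigp1 (immunity-related GTPases), Irf1 (interferon regulatory factor 1) and Cd274 (PD-L1). They were taken by symbol from the deposited gene list, in which all 10 were found among 31053 genes. They were followed in single cells of mouse mitral valves, sorted as live cells after digestion of the tissue, in 6 droplet libraries. The study compared K/B.g7 mice, whose valves the labels call inflamed, with B.g7 controls at 3, 8 and 25 weeks of age, 1 library for each genotype and age. Both genotypes carry the g7 haplotype of the major histocompatibility complex. K/B.g7 mice add KRN, a transgenic T cell receptor, and are known to make autoantibodies and to develop arthritis and inflamed valves, whereas B.g7 mice have no KRN. How many mice went into each library is not given in the sources used here, so every p-value below measures only the spread between these 6 libraries.

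Interferon-gamma, made mainly by T and natural killer cells, binds the receptor chains Ifngr1 and Ifngr2 and acts through the kinases Jak1 and Jak2. Promoters of its targets often hold gamma-activated sequences (GAS), and Irf1, itself an early target, binds interferon-stimulated response elements (ISRE). The guanylate-binding proteins and immunity-related GTPases are large GTPases that act against intracellular pathogens and their vacuoles, and PD-L1 on the cell surface restrains T cells through the receptor PD-1 (Pdcd1). Type I interferon acts through other receptors and induces an overlapping set of genes.

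Promoter windows from 250 bases before to 50 bases after a transcription start (RefSeq, GRCm38.p6) were matched for 8 of the 10 genes, in 10 windows, and not for Gbp4 and Iigp1. Each was searched on both strands for GAS, spelled TTCNNNGAA, and for ISRE, spelled GAAANNGAAA. The 170 bases before the start are printed here 5′ to 3′ on the gene's strand for each of the 8 genes, since their levels are compared below, and capitals mark the GAS and ISRE letters. Gbp3 and Irf1 have 2 windows each, and the one that holds a match is shown. The stretch of Gbp2 is chr3:142620493-142620662 (plus strand), Gbp3 is chr3:142559874-142560043 (plus strand), Gbp5 is chr3:142496764-142496933 (plus strand), Gbp7 is chr3:142530166-142530335 (plus strand), Irgm1 is chr11:48871421-48871590 (minus strand), Igtp is chr11:58199386-58199555 (plus strand), Irf1 is chr11:53769844-53770013 (plus strand) and Cd274 is chr19:29367268-29367437 (plus strand).
Gbp2: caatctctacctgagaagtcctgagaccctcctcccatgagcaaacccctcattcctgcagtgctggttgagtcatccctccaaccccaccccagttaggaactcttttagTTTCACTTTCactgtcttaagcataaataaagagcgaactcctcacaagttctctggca
Gbp3: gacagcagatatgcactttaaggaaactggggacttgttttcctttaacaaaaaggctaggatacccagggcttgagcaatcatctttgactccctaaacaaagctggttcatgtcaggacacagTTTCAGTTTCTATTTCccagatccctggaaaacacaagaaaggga
Gbp5: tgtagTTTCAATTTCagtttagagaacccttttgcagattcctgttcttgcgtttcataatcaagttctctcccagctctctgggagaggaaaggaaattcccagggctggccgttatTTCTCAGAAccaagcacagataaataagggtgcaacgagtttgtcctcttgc
Gbp7: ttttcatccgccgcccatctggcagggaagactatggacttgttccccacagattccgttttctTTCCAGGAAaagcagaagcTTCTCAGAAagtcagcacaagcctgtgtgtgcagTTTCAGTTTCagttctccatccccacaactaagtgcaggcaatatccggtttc
Irgm1: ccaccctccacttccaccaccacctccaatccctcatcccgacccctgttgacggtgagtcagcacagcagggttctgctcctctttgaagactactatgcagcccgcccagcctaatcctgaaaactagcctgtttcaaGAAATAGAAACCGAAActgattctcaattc
Igtp: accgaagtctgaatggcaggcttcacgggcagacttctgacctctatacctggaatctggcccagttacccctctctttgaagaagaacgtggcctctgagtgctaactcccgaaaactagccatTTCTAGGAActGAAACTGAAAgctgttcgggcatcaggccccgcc
Irf1: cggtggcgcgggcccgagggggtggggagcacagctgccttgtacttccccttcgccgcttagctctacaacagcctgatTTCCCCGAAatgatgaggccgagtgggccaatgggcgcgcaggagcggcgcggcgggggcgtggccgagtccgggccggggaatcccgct
Cd274: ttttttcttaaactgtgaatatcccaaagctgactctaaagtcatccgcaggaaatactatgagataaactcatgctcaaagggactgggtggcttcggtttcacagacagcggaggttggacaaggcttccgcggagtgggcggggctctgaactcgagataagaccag

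GAS letters were present in 4 of the 8 genes and ISRE letters in 6, and 7 held at least 1 of them. Among all 32851 windows of the same length in the table, 8.3% held GAS, 3.44% held ISRE and 11.3% held either. Igtp held GAS 45 bases and ISRE 34 bases upstream of the start. Gbp7 held GAS at 106 and 87 bases and ISRE at 53 bases, and Gbp5 held GAS at 52 and 245 bases (the latter outside the stretch printed) and ISRE at 165 bases. Gbp2 held ISRE at 59 bases. Gbp3 held overlapping ISRE matches at 45 and 39 bases, and Irgm1 at 30 and 24 bases. Irf1 held GAS at 90 bases in 1 of its 2 windows. No match was found in the window of Cd274, which says only that these letters are not in it. A match is a description of the sequence and was not tested as a binding site.

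The libraries held 58351 barcodes and 243691001 UMIs, between 15196750 UMIs in the shallowest library (B.g7 at 3 weeks of age) and 69152541 in the deepest (K/B.g7 at 25 weeks of age), and 48211 cells were used. Of these 37918 (78.7%) were interstitial fibroblast-like cells, named from their markers, and 10 classes had at least 20 cells in several libraries. The fibroblast-like sums held Dcn at 11326 to 15007 CPM (UMIs of a gene per 1000000 UMIs of the sum), against 70.0 to 939 CPM in the pooled immune cells. No library shared more than 0.721% of its barcodes with another. The B.g7 library of 8 weeks stood apart in sex. It held 3134 fibroblast-like cells with Xist and no Y-linked UMI and 91 with a Y-linked UMI and no Xist, whereas each other library held at least 835 of both kinds. Levels below are CPM of the UMIs summed over a class in a library, in which fewer expressing cells and less RNA per cell cannot be told apart. Since the kit counts 3′ ends, CPM is compared between classes for 1 gene. Reads of near-identical relatives (among the Gbp genes on chromosome 3, or Irgm1 and Igtp with their relatives on chromosome 11) may be split or dropped by the counting, so single members of these families are uncertain.

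All 10 genes were detected in the fibroblast-like cells, and 9 of them were highest in both 8-week libraries. Iigp1, a GTPase recruited to parasite vacuoles (chromosome 18, 60376027 to 60392634, mm10), stood at 14.6 CPM in B.g7 and 7.74 CPM in K/B.g7 at 3 weeks. At 8 weeks its level was 41.0 and 154.5 CPM, and at 25 weeks 17.5 and 13.1 CPM, in the same order. The 8-week K/B.g7 library was the highest of the 6, the 8-week B.g7 library came next, and the other 4 lay below both. Igtp (chromosome 11, 58199556 to 58207591), an immunity-related GTPase, stood in B.g7 at 6.53, 12.4 and 7.82 CPM and in K/B.g7 at 4.56, 37.5 and 4.66 CPM, at 3, 8 and 25 weeks. Irgm1 (chromosome 11, 48861968 to 48871683), which regulates the other GTPases and autophagy, stood in B.g7 at 6.34, 22.3 and 10.6 CPM and in K/B.g7 at 6.05, 35.8 and 13.8 CPM. For both genes the 8-week libraries were the 2 highest.

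**Figure D1:**
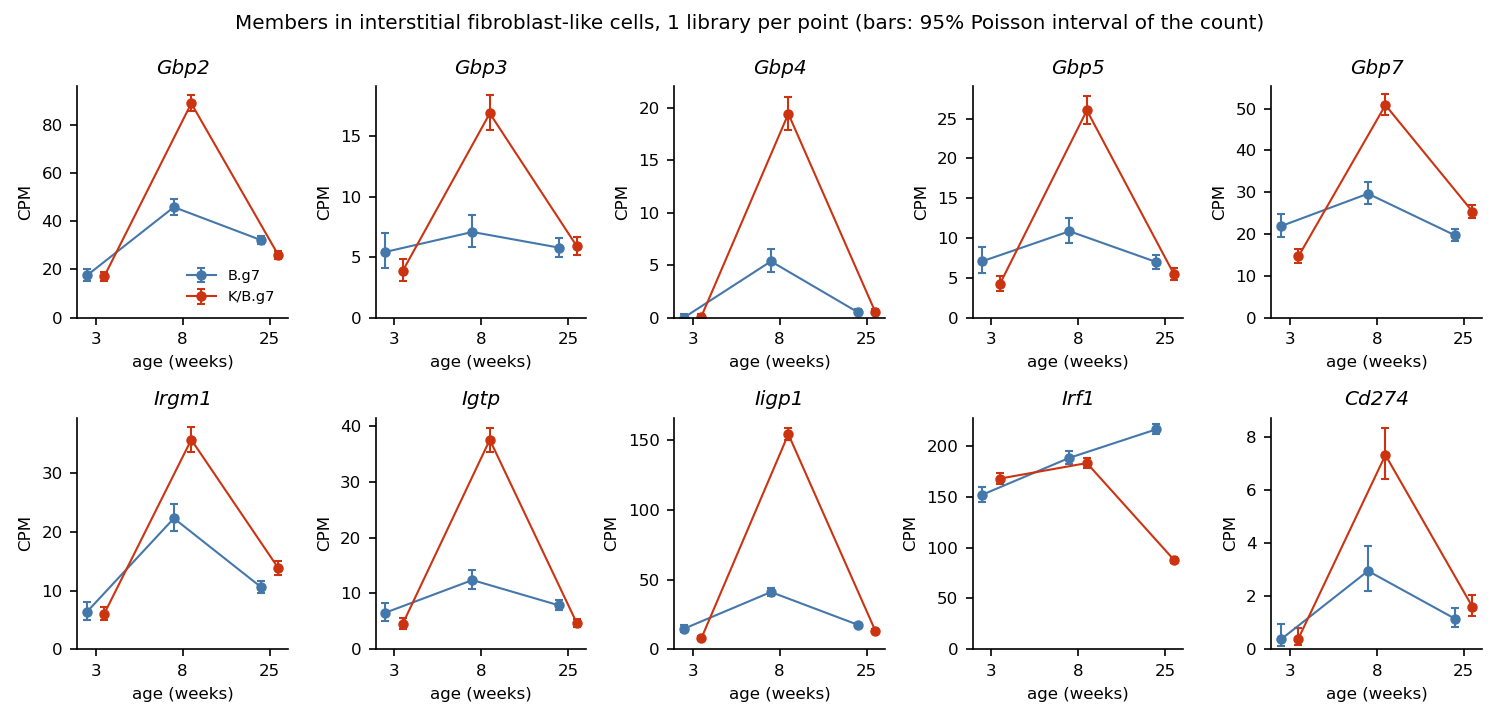
Levels of the 10 genes in interstitial fibroblast-like cells, 1 panel per gene, with age in weeks on an evenly spaced x axis and CPM on the y axis, a point per library, lines joining the ages of a genotype and bars for exact 95% Poisson intervals of the count. Both 8-week libraries lie above the other 4 in the panels of 9 genes, and Irf1 is the exception.

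Of the guanylate-binding proteins, Gbp2 (chromosome 3, 142620602 to 142638008) stood in B.g7 at 17.5, 45.9 and 32.2 CPM and in K/B.g7 at 17.1, 88.9 and 26.0 CPM. Gbp7 (chromosome 3, 142530342 to 142550149) stood at 21.9, 29.7 and 19.7 CPM in B.g7 and at 14.6, 50.8 and 25.4 CPM in K/B.g7. Gbp5, which promotes inflammasome assembly (chromosome 3, 142493978 to 142522344), stood at 7.08, 10.8 and 6.97 CPM in B.g7 and at 4.22, 26.0 and 5.47 CPM in K/B.g7. In these 3 genes the B.g7 library of 8 weeks lay between the K/B.g7 library of that age and all others. Gbp3 (chromosome 3, 142560026 to 142573209) stood at 5.42, 7.07 and 5.77 CPM in B.g7 and 3.87, 16.9 and 5.89 CPM in K/B.g7. The 3 B.g7 libraries of Gbp3 lay close together, with a mean of 6.09 ± 0.869 CPM (SD, n = 3). Gbp4 (chromosome 5, 105115767 to 105139586) had 0 and 2 UMIs at 3 weeks, 91 and 616 at 8 weeks and 19 and 22 at 25 weeks, in B.g7 and K/B.g7. Its 0 UMIs allow up to 0.276 CPM (3 counts), and its levels at 8 weeks were 5.36 and 19.4 CPM.

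Cd274, which encodes PD-L1 (chromosome 19, 29367455 to 29388095), was low in the fibroblast-like cells, at 0.368, 2.95 and 1.14 CPM in B.g7 and 0.397, 7.32 and 1.59 CPM in K/B.g7. These levels rested on 4, 50 and 43 UMIs in B.g7 and on 8, 232 and 67 UMIs in K/B.g7. Both 8-week libraries were again the highest. Irf1 (chromosome 11, 53770014 to 53778374) was the only 1 of the 10 without that pattern. It stood at 152, 188 and 216 CPM in B.g7 and at 168, 183 and 87.9 CPM in K/B.g7, and only the 25-week K/B.g7 library stood apart.

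In fibroblast-like cells, 5 of the 10 genes rose from 3 to 8 weeks. These were Gbp4, Cd274, Iigp1, Irgm1 and Gbp2, by a quasi-likelihood test (edgeR) over 14407 genes with genotype in the model and a false discovery rate (FDR) of 0.05. Among all genes tested 2.86% rose in this comparison, and the 10 genes had a median log2 difference of 2.09. Shares of all genes called, here and below, are those of the main edgeR fit. No such share is given for counts with a library left out, by DESeq2 or under other settings. Those counts cannot tell a change particular to the 10 genes from a change in calls over all genes. Irgm1 was higher by 2.26 ± 0.217 (log2, SE; FDR 0.00311), Gbp2 by 1.98 ± 0.307 (FDR 0.0163), Cd274 by 3.75 ± 0.451 (FDR 0.00726) and Iigp1 by 3.12 ± 0.614 (FDR 0.0313). For Gbp4 the pooled level was 225-fold higher (exact 95% interval 62.2 to 1865, counting error only) with 707 against 2 UMIs, and the FDR was 0.00287. Gbp4 reached the minimum of the filter on low counts (0.386 CPM) in its 4 libraries of 8 and 25 weeks and in neither library of 3 weeks. Igtp (2.21 ± 0.529, FDR 0.0572), Gbp7 (1.17 ± 0.283, FDR 0.0589), Gbp5 (1.77 ± 0.434, FDR 0.0605) and Gbp3 (1.38 ± 0.379, FDR 0.0815) did not pass, nor did Irf1 (0.24 ± 0.365, FDR 0.729). In 9 of the 10 genes both 8-week libraries stood above the other 4, a pattern of 7.47% of all genes tested. Among cells with Xist alone, Gbp3 and Gbp5 lost this pattern and the rest of the 9 kept it. Gbp3 stood there at 6.35 CPM in B.g7 at 8 weeks and 7.27 CPM in K/B.g7 at 25 weeks. Gbp5 stood at 9.90 CPM in B.g7 at 8 weeks and 12.4 CPM in B.g7 at 3 weeks. The number that rose depended on single libraries. It was 2 without the 3-week K/B.g7 library, 5 or 6 without the 8-week or 25-week K/B.g7 library, 8 without the 3-week or the 25-week B.g7 library and 9 without the 8-week B.g7 library, and DESeq2 called 8.

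Within each genotype all 10 genes were higher at 8 than at 3 weeks, a count for which no share over all genes is given. The median log2 ratio was 0.92 in B.g7 and 2.59 in K/B.g7, 1 library against 1 in each, and the difference between these medians was not tested. The class was a different mixture at the 2 ages. In clusters made without the 10 genes, cells led by Eln and Rbp4 were 37.0% of the class in B.g7 and 49.5% in K/B.g7 at 3 weeks and 2.80% and 0.177% at 8 weeks. Cells led by Cxcl14 and Ifi205 were 0.877% and 0.406% at 3 weeks and 5.20% and 31.7% at 8 weeks, in the same order. Within single clusters of at least 50 cells at both ages, the median ratio of 8 to 3 weeks lay between 1.52 and 9.10 in 6 clusters of K/B.g7, with 9 or 10 of the 10 genes higher at 8 weeks. In 8 clusters of B.g7 it lay between 0.664 and 3.52, with 4 to 10 genes higher. It was under 1 in B.g7 cells led by Eln and Rbp4 and in those led by Wif1 and Prss35 (0.822), where Iigp1 stood at 51.6 CPM at 3 weeks and 42.4 CPM at 8 weeks. The sex markers changed with age as well. In B.g7, cells with Xist alone and with Y-linked UMIs alone numbered 1023 and 835 at 3 weeks and 3134 and 91 at 8 weeks. Among the B.g7 cells with Xist alone, Gbp5 stood at 12.4 CPM at 3 weeks and 9.90 CPM at 8 weeks, and Irf1 at 225 and 186 CPM. The other genes were higher at 8 weeks in these cells, such as Gbp2 at 24.8 and 42.8 CPM. The parts of the mixture and of sex in the age difference of the class were not tested.

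From 8 to 25 weeks all 10 fitted differences were negative, with a median of -1.44, and Gbp4 fell (log2 difference -4.42 ± 0.472, FDR 0.0218), where 0.0486% of all genes fell. The other 9 did not pass by edgeR, although 9 of the 10 had an unadjusted p under 0.05. DESeq2 called 5, and the count ranged from 0 without the 25-week K/B.g7 library to 9 without the 8-week B.g7 library. It was 2 without any 1 of the 3-week B.g7, 3-week K/B.g7 and 8-week K/B.g7 libraries. Between 3 and 25 weeks 0 of 10 passed by edgeR (0.25% of all genes rose and 0.125% fell). In that contrast the unadjusted p was under 0.05 for 4 genes. DESeq2 called 1, and edgeR 3 without either 8-week library. The contrasts share libraries and are not independent.

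**Figure D2:**
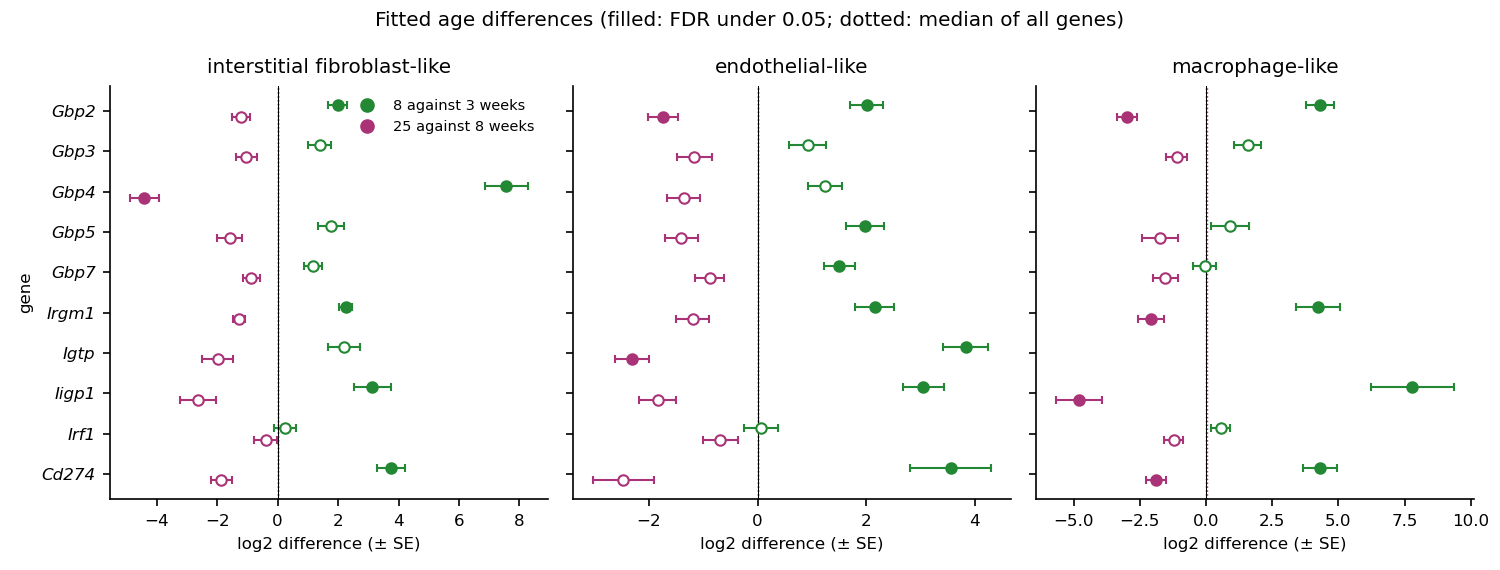
Fitted log2 differences (x axis, points with standard errors, filled where the FDR is under 0.05) of each gene for 8 against 3 weeks and 25 against 8 weeks, in fibroblast-like, endothelial-like and macrophage-like cells, each panel with its own x scale and the median of all genes dotted. The 25 against 8 week points all lie left of 0 and those of 8 against 3 weeks right of it, except Gbp7 in macrophage-like cells, which lies at about 0, and the fitted values of Gbp4 in fibroblast-like and Iigp1 in macrophage-like cells depend on the prior count.

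The 8-week libraries were also highest in endothelial-like cells, for the same number of genes, 9 of 10 (4.13% of all genes tested). Iigp1 stood there at 24.4, 139 and 68.7 CPM in B.g7 and at 24.1, 250.05 and 45.9 CPM in K/B.g7, at 3, 8 and 25 weeks. Igtp stood at 4.58, 45.1 and 8.28 CPM in B.g7 and 5.35, 87.1 and 20.2 CPM in K/B.g7. Gbp2 stood at 22.9, 109 and 32.3 CPM in B.g7 and 45.5, 149 and 52.2 CPM in K/B.g7. In each of these 3 genes both 8-week libraries lay above the other 4. Endothelial-like cells were 21.7% of the cells of the 8-week B.g7 library and 2.37% to 5.60% of each other library. A change in the mixture of this class with age was not tested. From 3 to 8 weeks 7 of the 10 genes rose (0.757% of all genes rose), among them Igtp by 3.83 ± 0.411 (log2, SE; FDR 0.00109), Iigp1 by 3.05 ± 0.382 (FDR 0.00274), Irgm1 by 2.16 ± 0.36 (FDR 0.0156) and Gbp2 by 2.01 ± 0.302 (FDR 0.0079). Gbp5, Gbp7 and Cd274 rose too, Cd274 from 3 UMIs in both 3-week libraries together. Cd274 entered this test through its 8-week libraries alone, so neither its call nor its being highest at 8 weeks is support for a rise. Of the other 9 genes, 6 rose. Gbp4, which was already at 32.1 and 55.3 CPM at 3 weeks, did not pass, at a log2 difference of 1.24 ± 0.318 (FDR 0.0994), nor did Gbp3 (FDR 0.252) and Irf1 (FDR 0.95). From 8 to 25 weeks 2 genes fell (0.177% of all genes), Igtp (log2 difference -2.31 ± 0.314, FDR 0.00809) and Gbp2 (-1.74 ± 0.281, FDR 0.031). Between 3 and 25 weeks 0 of 10 passed by edgeR, and 0% of all genes rose or fell, with an unadjusted p under 0.05 for 3 of the 10. The number that rose was 2 without the 3-week B.g7 library and 0 without the 3-week K/B.g7 library by edgeR, and the number that fell ranged from 0 without either 25-week library to 5 without the 8-week K/B.g7 library. It was 1 without the 3-week B.g7 library and 4 without the 8-week B.g7 library. DESeq2 called 5 that rose and 3 that fell.

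Macrophage-like cells held fewer UMIs (141415 to 1815363 per library), and 8 of the 10 genes passed the filter, without Gbp4 and Igtp. Cd274 stood at 7.07, 61.0 and 12.1 CPM in B.g7 and 4.24, 125 and 40.1 CPM in K/B.g7, and Gbp2 at 14.1, 134 and 17.3 CPM in B.g7 and 4.24, 163 and 18.2 CPM in K/B.g7. Both 8-week libraries were the highest for 5 of the 8 genes, Cd274, Gbp2, Gbp3, Iigp1 and Irgm1 (10.3% of all genes tested). Cd274, Gbp2, Iigp1 and Irgm1 rose from 3 to 8 weeks (3.06% of all genes rose) and fell from 8 to 25 weeks (2.02% fell). Gbp2, Iigp1 and Irgm1 reached the minimum of the filter (23.4 CPM) in the 8-week libraries alone, where they are high. Neither their calls nor their being highest at 8 weeks are support for either change. Of the 5 genes tested that were not admitted in this way, Cd274 rose and fell and the other 4 did not pass. Of these 5 genes, Cd274 and Gbp3 were highest in both 8-week libraries. Iigp1 had 0 UMIs in both 3-week libraries and 114 at 8 weeks, and was at least 5.92-fold higher against a floor of 3 counts over both. The rise of Cd274 started from 2 UMIs (ratio 20.6, exact 95% interval 5.63 to 171), that of Gbp2 from 3 (19.6, interval 6.65 to 95.3) and that of Irgm1 from 1 (19.6, interval 3.46 to 781). The number that rose was 1 without the 3-week K/B.g7 library, 2 without either 8-week library and 7 without the 25-week K/B.g7 library, and DESeq2 called 2. The number that fell was 1 without the 8-week K/B.g7 library, 6 at most with another library left out and 1 by DESeq2.

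Lymphatic endothelial-like and mural or smooth muscle-like cells held fewer called genes. In the lymphatic class Gbp2, Gbp4 and Iigp1 rose from 3 to 8 weeks (3 of 9 tested, against 1.93% of all genes). Iigp1 stood there at 10.2, 82.5 and 54.7 CPM in B.g7 and 32.9, 202 and 68.6 CPM in K/B.g7. Gbp2 and Iigp1 were also higher at 25 than at 3 weeks (1.83% of all genes), by log2 differences of 1.61 ± 0.42 (FDR 0.0405) and 1.63 ± 0.387 (FDR 0.0258). DESeq2 called 1 gene of the first contrast and 0 of the second, in which 5 genes had an unadjusted p under 0.05 by edgeR. In the mural class Gbp7 and Irgm1 rose from 3 to 8 weeks (2 of 6 tested, against 1.22% of all genes), and DESeq2 called 1. Both 8-week libraries were the highest for 4 of 9 genes in the lymphatic class (4.87% of all genes) and for 3 of 6 in the mural class (6.85%).

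The classes differed in which gene stood highest, but neighbours in the order mostly overlapped. Over 10 classes and the libraries with at least 20 cells of a class, means ± 1 SD of neighbouring classes were apart in 1 of 90 pairs. That pair was Gbp2 in mesothelial-like cells (321 ± 144 CPM, SD, n = 5) above endothelial-like cells (68.5 ± 49.7 CPM, n = 6). Iigp1 was ordered endothelial-like (92.1 ± 88.4 CPM, n = 6), lymphatic endothelial-like (75.1 ± 67.2 CPM, n = 6) and fibroblast-like (41.4 ± 56.6 CPM, n = 6), with means in which the 8-week libraries carry most of the spread. Gbp4 was led by T cell-like cells (72.7 ± 23.1 CPM, n = 4, without the 3-week libraries), then endothelial-like cells (61.9 ± 37.1 CPM, n = 6), but over the 2 libraries of 8 weeks endothelial-like cells came first, with means of 101 against 85.3 CPM. In the first order fibroblast-like cells came 9th at 4.32 ± 7.68 CPM (n = 6). Igtp was led by T cell-like cells as well (69.6 ± 23.2 CPM, n = 4), and Gbp7 by lymphatic endothelial-like cells (120 ± 35.6 CPM, n = 6). Irgm1 was led by glial-like cells (40.9 ± 31.8 CPM, n = 6). Irf1 was led by mesothelial-like cells (286 ± 203 CPM, n = 5), in which the 25-week B.g7 library stood at 633 CPM. At 8 weeks mural or smooth muscle-like cells led Irf1 (298 CPM) and mesothelial-like cells came 6th (192 CPM). Cd274 was led by B cell or plasma cell-like cells (50.6 ± 24.2 CPM, n = 5) and macrophage-like cells (41.6 ± 46.5 CPM, n = 6), which changed places at 8 weeks (69.8 and 93.0 CPM), with fibroblast-like cells 9th at 2.29 ± 2.64 CPM (n = 6).

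**Figure D3:**
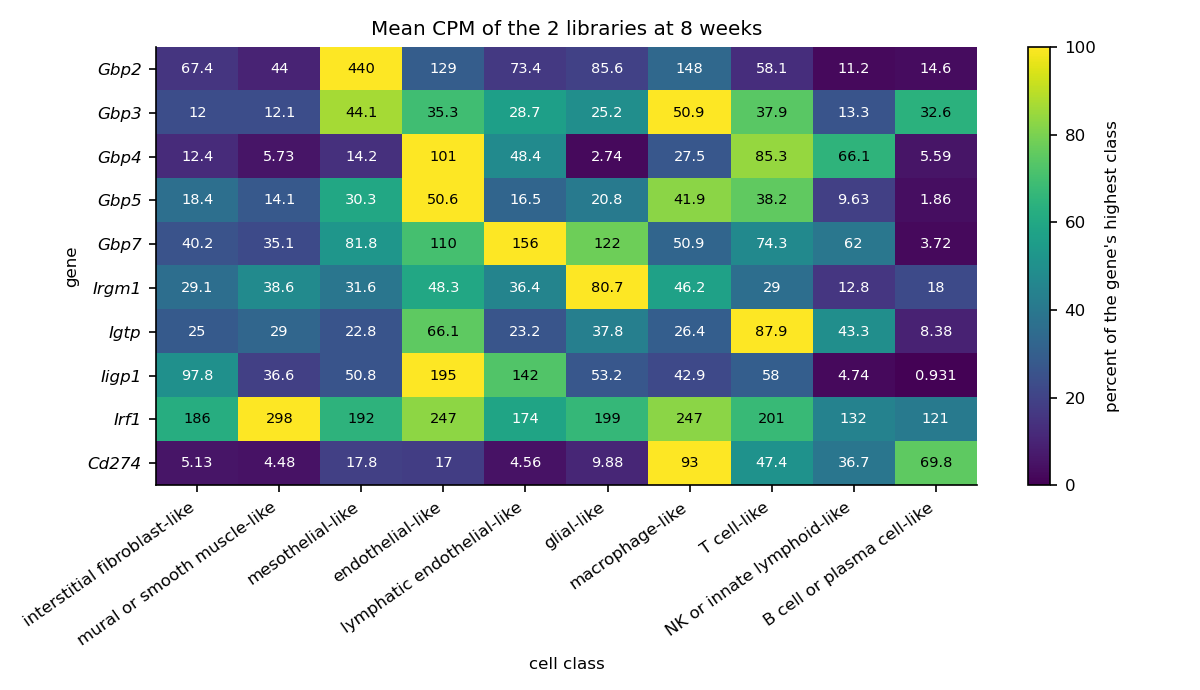
Mean CPM of the 2 libraries of 8 weeks, printed in each cell, for the 10 genes (y axis) in 10 cell classes (x axis), coloured as percent of the gene's highest class. Iigp1 is highest in endothelial-like cells, followed by lymphatic endothelial-like and fibroblast-like cells, and Cd274 in macrophage-like cells, followed by B cell or plasma cell-like cells.

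Free RNA from immune cells can reach fibroblast droplets, so the markers of immune cells were read in the fibroblast-like sums. Ptprc, Tyrobp and Cd52 stood at no more than 0.424% of their level in the pooled immune cells in any library. Other markers reached higher shares in K/B.g7 at 8 weeks, with Nkg7 at 0.561%, Cd79a at 0.702% and Cd3e at 1.64%. The highest share of Cd3e was 1.71%, in K/B.g7 at 3 weeks. Summed over whole marker lists, the share in K/B.g7 at 8 weeks was 15.6% for NK or innate lymphoid and 5.01% for dendritic cells. It was 1.66% for monocytes or neutrophils, 0.820% for T cells, 0.344% for macrophages and 0.242% for B or plasma cells. Mast cell markers, at 12.7 CPM in the immune cells, gave 69.5%. The NK or innate lymphoid share was highest at 3 weeks, at 18.5% in B.g7 and 29.8% in K/B.g7. Iigp1 in the fibroblast-like sums stood at 204% of its immune level in B.g7 and at 351% in K/B.g7 at 8 weeks, and Irgm1 at 79.2% and 93.4%. Gbp4 stood at 14.8% and 40.3%, and Cd274 at 5.81% and 7.47%. All 8 macrophage markers were detected in the 8-week libraries, with a summed level of 10.0 CPM in B.g7 and 26.4 CPM in K/B.g7, against 6.69 to 9.48 CPM at the other ages. B cell and plasma cell markers summed to 9.56 CPM in K/B.g7 at 8 weeks and to no more than 2.38 CPM in the other libraries. Their part in the fibroblast-like levels of Cd274 and Gbp4 was not tested.

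The genotypes were compared with age as a block, so that the 3 ages stood in for replicates. With 1 library per genotype and age, the test has no term for a difference at 1 age alone. Such a difference is averaged over the ages and adds to the error, so this test cannot decide on it. In fibroblast-like cells 0 of the 10 genes passed by edgeR, as did 0 of all 14407 genes tested (0% higher and 0% lower). The lowest FDR was 0.729, for Gbp4, which was also the only 1 of the 10 with an unadjusted p under 0.05, and DESeq2 called 0. Iigp1 had a mean of 24.4 ± 14.5 CPM in B.g7 and 58.5 ± 83.2 CPM in K/B.g7 (SD, n = 3 each), a fitted log2 difference of 0.14 ± 0.48 (SE; FDR 0.962). An exact two-sided permutation test over 3 against 3 libraries leaves out the age block and cannot give a p under 0.1, so its values for the 10 genes (0.4 to 1) decide nothing. No gene had all 3 K/B.g7 libraries above all 3 B.g7 libraries (5.44% of all genes did). At each of the 3 ages K/B.g7 had the larger value for Cd274 and Gbp4 (a pattern of 15.5% of all genes), Gbp4 on 2 against 0 UMIs at 3 weeks. In endothelial-like and macrophage-like cells 0 genes passed as well (0% and 0.0988% of all genes were higher by edgeR). In these, the unadjusted p was under 0.05 for 2 genes and 1 gene, and 0 were called by DESeq2. In the other 7 classes 0 genes passed by edgeR or DESeq2, and at an unadjusted p under 0.05 there were 3 in mural, 1 each in lymphatic, mesothelial and B cell or plasma cell-like and 0 in T cell-like, NK or innate lymphoid-like and glial-like sums. The background of those classes, as percent of all genes higher and lower in K/B.g7, was 0.786% and 1.18% in mural, 0.117% and 0.026% in lymphatic, 0.112% and 0.356% in mesothelial, 0.148% and 0% in B cell or plasma cell-like, 0.297% and 0% in T cell-like, 0.122% and 0.122% in NK or innate lymphoid-like and 0.212% and 0.451% in glial-like sums. Irf1 was the single gene with a negative fitted difference in fibroblast-like cells, -0.47 ± 0.306 (FDR 0.822), and it was 0.035 without the 25-week libraries.

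At 8 weeks alone, K/B.g7 was above B.g7 in 9 of 10 genes in fibroblast-like cells (59.7% of all genes). There is 1 library per genotype here, so the following ratios carry exact 95% intervals for counting error only and no test. Iigp1 was 3.77 times as high (3.48 to 4.08), Gbp4 3.62 times (2.90 to 4.57) and Igtp 3.03 times (2.62 to 3.53). Cd274 was 2.48 times as high (1.82 to 3.44), Gbp5 2.40 times (2.04 to 2.83) and Gbp3 2.39 times (1.95 to 2.93). These 6 were past 2-fold, as 6.4% of all genes were. Gbp2 (1.94), Gbp7 (1.72) and Irgm1 (1.60) were under it, and Irf1 was at 0.972 (0.931 to 1.02). The median of the 10 ratios was 2.39, against 0.713 at 3 weeks, over the 9 genes with a ratio, and 0.908 at 25 weeks. K/B.g7 was above B.g7 in 3 of 10 genes at 3 weeks (45.3% of all genes) and 5 of 10 at 25 weeks (59.3%). K/B.g7 was also above B.g7 at 8 weeks in 10 of 10 genes in endothelial-like cells (62.0% of all genes, median ratio 1.67, and 0 past 2-fold, as 7.52% of all genes were), in 8 of 8 tested in macrophage-like cells (58.9%) and in 8 of 9 in lymphatic endothelial-like cells (52.3%), but in 3 of 6 in mural or smooth muscle-like cells (57.8%).

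**Figure D4:**
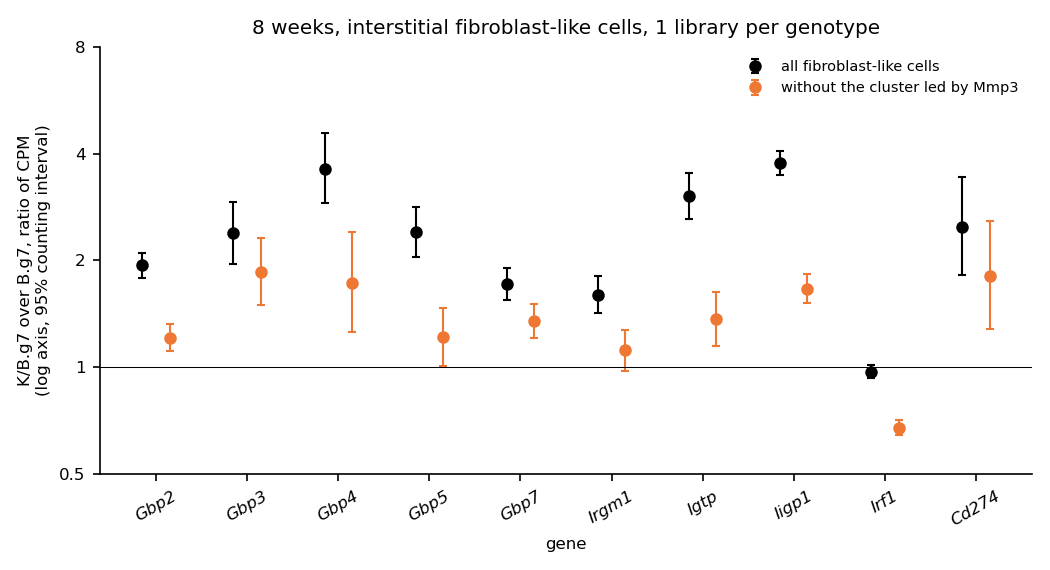
Ratios of K/B.g7 to B.g7 at 8 weeks (y axis, log scale, 1 library each) for the 10 genes (x axis) in all fibroblast-like cells and without the cluster led by Mmp3 in the clustering on all genes, with exact 95% intervals for counting error. In both sets 9 of 10 ratios lie above 1, and Irf1 lies below it.

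The markers of sex moved with this comparison. Among fibroblast-like cells with Xist alone the median 8-week ratio was 3.00 and all 10 genes were higher in K/B.g7 (3539 against 3134 cells). Among cells with Y-linked UMIs alone the median was 0.352 and all 10 were lower in K/B.g7, but B.g7 had 91 such cells. The median depth of the Y-linked cells was 3314 UMIs in B.g7 and 4983 UMIs in K/B.g7. No share over all genes is given for counts in cells split by sex marker or cluster. Such counts cannot be called particular to the 10 genes. Iigp1 stood at 33.4 CPM in the Xist cells and 316 CPM in the 91 Y-linked cells of B.g7, and at 210 and 106 CPM in the Xist and Y-linked cells of K/B.g7. The cells of a cluster led by Mmp3 and Lcn2, described below, were spread unevenly over these groups. They were 312 (8.82%) of the Xist cells and 38 (2.41%) of the Y-linked cells of K/B.g7, 9 (9.89%) of the 91 Y-linked cells of B.g7 and 0 of its Xist cells. Outside that cluster the median 8-week ratio was 1.60 in Xist cells, with 9 of 10 genes higher in K/B.g7, and 0.653 in Y-linked cells, with 1 of 9 genes higher (1536 against 82 cells). At 3 and 25 weeks Iigp1 lay between 6.26 and 19.5 CPM in both kinds of cells in both genotypes. The part of sex in the genotype difference at 8 weeks was not tested, and with these libraries sex and genotype cannot be fully told apart.

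Irf1 differed in another library. At 25 weeks its level in K/B.g7 fibroblast-like cells was 0.406 of that in B.g7 (exact 95% interval 0.391 to 0.422), and it was lower in K/B.g7 in 8 of 10 classes. It stood at 130 against 633 CPM in mesothelial-like cells, 97.2 against 282 CPM in mural or smooth muscle-like cells and 126 against 207 CPM in endothelial-like cells. The 25-week K/B.g7 library also had the lowest median depth, 2875 UMIs per cell against 5614 in B.g7, and Socs3, another early gene of cytokine signalling, stood at 305 against 595 CPM in its fibroblast-like cells. The part of depth in this difference was not tested.

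Within the fibroblast-like cells the genes were read in clusters made without the 10 genes and without the pathway lists below. A cluster led by Mmp3, Lcn2, Saa3 and Timp1 (a protease, a siderophore-binding protein, an acute-phase protein and a protease inhibitor) held 407 cells of the 8-week K/B.g7 library, or 5.99% of the class. It held 12 cells of the 8-week B.g7 library, 6 of the 25-week K/B.g7 library and 0 of the other 3. In the 8-week K/B.g7 library these cells held 66.1% of the Gbp4 UMIs of the class, 58.7% of Iigp1, 56.1% of Igtp, 54.3% of Gbp5 and 42.6% of Gbp2. The share was lowest for Gbp7, at 29.4%, and was 38.5% for Irf1 and 37.1% for Cd274. Iigp1 stood at 809 CPM in the cluster and Irf1 at 628 CPM. With this cluster left out (407 K/B.g7 and 12 B.g7 cells), a choice made after seeing the data, the median 8-week ratio was 1.53 in place of 2.39, and 9 of 10 genes were higher in K/B.g7. The clustering on all genes, which the 10 genes helped to define, had a larger cluster led by the same genes (522 and 14 cells), and without it the median was 1.36, again with 9 of 10 higher.

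Other fibroblast clusters differed in the ratio at 8 weeks. The ratio of Iigp1 was 5.23 in cells led by Wif1 and Prss35 (222 against 42.4 CPM), 6.07 in cells led by Cst6 and Col8a1 (57.6 against 9.50 CPM) and 4.45 in cells led by Chad and Fmod, a chondrogenic pair (171 against 38.3 CPM). In these 3 clusters the median ratio of the genes was 3.24, 3.85 and 2.13. It was 0.805 in cells led by Cxcl14 and Ifi205, where Iigp1 stood at 55.9 against 62.0 CPM, and 0.809 in cells led by Inmt and Mt1. The cells led by Cxcl14 and Ifi205 were 31.7% of the K/B.g7 class and 5.20% of the B.g7 class, and those led by Igfbp3 and Myoc 4.13% and 38.6%, so the genotypes were summed over different mixtures. At 3 weeks, the Wif1 and Prss35 cells held most Iigp1. They were 18.1% of the B.g7 class with 64.8% of its Iigp1 UMIs, and 14.97% of the K/B.g7 class with 55.1%. Iigp1 stood there at 51.6 and 31.2 CPM, and in the 3-week clusters of at least 100 cells led by other genes at 7.92 CPM or less.

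The number of genes detected per cell was read after thinning each cell to 2000 UMIs, with Irf1 set aside because it was detected in 12.1% to 24.6% of cells in every library. At least 2 of the other 9 were detected in 10.0% of fibroblast-like cells of the 8-week K/B.g7 library (exact binomial 95% interval 9.25 to 10.8) and 3.90% of the 8-week B.g7 library (3.23 to 4.66). The shares were 0.948% and 0.816% at 3 weeks and 1.88% and 1.53% at 25 weeks, in B.g7 and K/B.g7. Both 8-week libraries were above the other 4. Without thinning the 8-week shares were 20.3% and 12.1%, in K/B.g7 and B.g7. At least 4 of the 9 were detected in 129 cells of the 8-week K/B.g7 library and in 12 of the 8-week B.g7 library. In the Mmp3 and Lcn2 cluster at least 2 were detected in 55.1% of cells (49.9 to 60.2), and in the other clusters of that library in 2.96% to 15.7%. Thinning left out 836 K/B.g7 and 636 B.g7 fibroblast-like cells at 8 weeks.

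**Figure D5:**
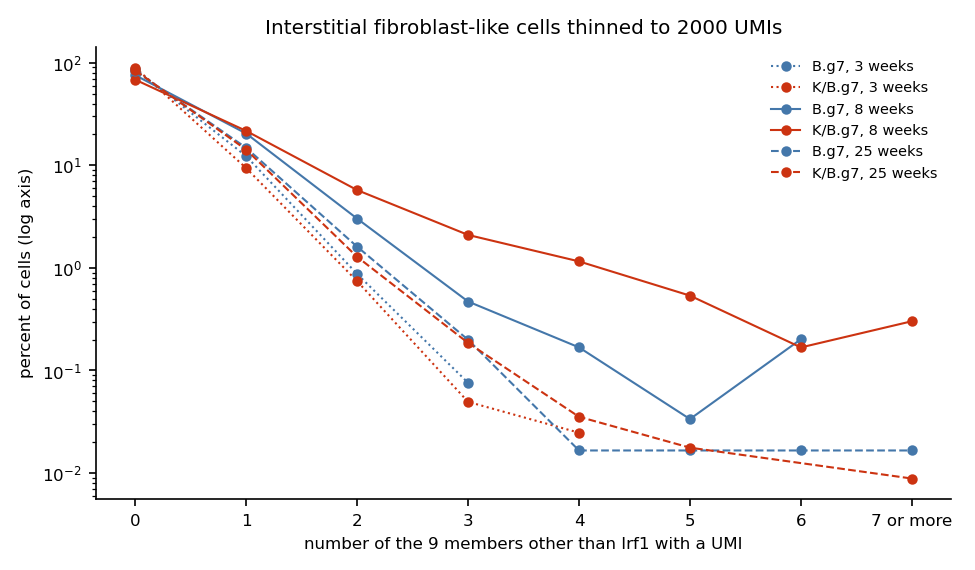
Share of fibroblast-like cells (y axis, percent, log scale) by the number of the 9 genes other than Irf1 with a UMI (x axis), 1 line per library, each cell thinned to 2000 UMIs and points of 0 cells left out. The 8-week K/B.g7 line is the highest from 2 to 5 genes, with the 8-week B.g7 line next.

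Iigp1 alone was detected in 11.1% of thinned fibroblast-like cells of the 8-week K/B.g7 library and 5.68% of the B.g7 library, with median depths of 4552 and 5228 UMIs before thinning. In NK or innate lymphoid-like cells of the same libraries, the comparison class for free RNA, it was detected in 0.962% and 2.94% of cells (1 of 104 and 3 of 102), with median depths of 3143 and 3448 UMIs. In endothelial-like cells it was detected in 26.0% and 14.8%. Gbp4 was detected in 2.10% and 0.773% of fibroblast-like cells at 8 weeks and in 0 of 4043 and 0 of 2636 at 3 weeks, which allows shares of up to 0.0742% and 0.114% of cells with a UMI at this thinned depth. Unthinned, the 3-week class held the 2 UMIs of Gbp4 given above, both in K/B.g7. NK or innate lymphoid-like cells give no such comparison for Gbp4, whose mean at 8 weeks was 66.1 CPM there and 12.4 CPM in fibroblast-like cells.

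Of the pathway's other genes, the ligand Ifng had 976 UMIs in all, and 93.8% of them lay in NK or innate lymphoid-like and T cell-like cells. The NK or innate lymphoid class also held a cluster of cytotoxic cells with Trac. There was 1 Ifng UMI in each 3-week library, 219 (B.g7) and 397 (K/B.g7) at 8 weeks and 181 and 177 at 25 weeks. All cells used held 27254584 (B.g7) and 39266785 (K/B.g7) UMIs at 8 weeks and 48218986 and 52837829 at 25 weeks. Over all cells Ifng was thus a smaller part of the UMIs at 25 than at 8 weeks in both genotypes. Ifng in NK or innate lymphoid-like cells stood at 519 CPM in B.g7 and 645 CPM in K/B.g7 at 8 weeks, and at 756 and 1001 CPM at 25 weeks, when the GTPases of the fibroblast-like cells were lower. Those sums held 22 to 154 cells each. Ifng in the fibroblast-like sums was at 0.347 CPM or less. The ligands Ifna4, Ifnb1, Ifnl2 and Ifnl3 had 0 UMIs in the fibroblast-like sums.

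Ifngr1, the ligand-binding receptor chain, lay between 152 and 229.99 CPM in the fibroblast-like sums and its partner Ifngr2 between 35.5 and 62.0 CPM over the 6 libraries, and 0 of 4 receptor genes passed from 3 to 8 weeks by edgeR (Ifngr1, log2 difference 0.31, FDR 0.438). Of the signalling genes and regulators, Jak1 (-0.02, FDR 0.968), Jak2 (0.53, FDR 0.252) and Socs1, a feedback inhibitor (-0.09, FDR 0.876), did not pass, nor did Irf8, Irf9 and Socs3. Pdcd1, the receptor of PD-L1, stood in T cell-like cells at 289 CPM in B.g7 and 218 CPM in K/B.g7 at 8 weeks and at 29.0 and 35.3 CPM at 25 weeks.

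Of 13 other GTPases, 9 were tested in fibroblast-like cells and 7 rose from 3 to 8 weeks (2.86% of all genes rose), with a median log2 difference of 3.28. Tgtp2 (0 and 0 CPM at 3 weeks, 1.12 and 4.16 CPM at 8 weeks, in B.g7 and K/B.g7) and Gbp2b (log2 difference 3.28, FDR 0.0453) were among them, and Gbp6 (2.09, FDR 0.0675) and Gvin1 (3.74, FDR 0.0522) did not pass. Of 20 other interferon-gamma induced genes, 16 were tested and 10 rose (2.86% of all genes rose), with a median of 1.92. Psmb9, an immunoproteasome subunit, rose by 2.76 (FDR 0.00362), Nlrc5, an activator of MHC class I genes, by 4.72 (FDR 0.0301) and Cd74, the MHC class II chaperone, by 3.79 (FDR 0.0478), whereas Wars did not pass (0.05, FDR 0.901). Of 15 genes chosen as type I interferon-stimulated, 14 were tested and 9 rose (median 1.93, with 2.86% of all genes rising). Among them were Isg15 (2.46, FDR 0.00218), Ifit1 (2.37, FDR 0.00643) and Rsad2 (2.26, FDR 0.0299), and Mx1 did not pass (2.92, FDR 0.0708). Admission by the filter through the 8-week libraries alone was checked for the 10 genes and not for these lists. The counts of rises may thus include genes tested only because they are high at 8 weeks. From 8 to 25 weeks Cxcl9, a chemokine for T cells named here after its values were seen, was the only gene of these lists to fall (0.0486% of all genes fell). It stood at 0.552, 17.7 and 0.479 CPM in B.g7 and 0.248, 74.6 and 0.143 CPM in K/B.g7. In the genotype comparison 0 genes of these lists passed by edgeR (0% of all genes were higher and 0% lower).

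The genes whose levels followed the 10 most closely were found by the Pearson correlation of log2(CPM + 1) with the mean of the standardized levels of the 10. Over the 6 fibroblast-like sums, among 7890 genes of at least 10 CPM, the closest was H2-K1 (0.995), followed by Lcn2, Psmb8, Tap1, Vegfb, H2-Q7, H2-D1, Adamts1, Stat3 and H2-Q6 (0.974). The first, a classical MHC class I gene, stood at 238, 577 and 312 CPM in B.g7 and 225, 1240 and 271 CPM in K/B.g7, with both 8-week libraries highest. Of the 10 genes themselves, 9 correlated with that mean by 0.933 (Gbp7) to 0.995 (Iigp1), and Irf1 by 0.363. Each of the 10 is part of that mean, so high values are partly built in and are not evidence that the genes move together. Over 60 sums of all classes and libraries the closest were Irgm2 (0.739), Tapbp, Nod1, Rnf213 and Lgals3bp, and among the 10 genes the correlation was lowest for Cd274 (0.148). These values describe the libraries, which share depth and processing within a class sum, and carry no test.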

How the data were processed

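Single cells of digested mitral valves were sorted as live and captured on the 10x 3′ platform, in 6 libraries. The deposited values are UMI counts per gene and barcode, made by the authors with Cell Ranger 3.1.0 on mm10, per the submitters' processing notes. The annotation version is not given in the sources used here. Gene positions are those of GENCODE M21, matched by identifier.

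Barcodes with at least 500 UMIs, 300 genes, at most 10% mitochondrial UMIs and at most 20% hemoglobin UMIs (the last limit chosen after seeing the data) were kept, which left 53390. Scrublet marked 35 by its automatic threshold, so the 5179 barcodes of highest score, at 0.8% per 1000 barcodes, were removed instead, and 48211 cells were used. Cells were clustered with scanpy 1.11.5 (2000 variable genes, 30 components, 15 neighbours, Leiden resolution 1.0) into 37 clusters. From marker genes 13 classes were named, and 4 clusters were left unnamed. Clustering without the 10 genes and the pathway lists kept 99.7% of cells in their class.

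Counts were summed by class and library, for sums of at least 20 cells, and fitted in R 4.3.3 with edgeR 4.0.16, on age and genotype, using TMM factors, the filterByExpr rule and the quasi-likelihood test. FDR is the Benjamini-Hochberg adjusted p over all genes tested. Age served as the replicate block of the genotype comparison. In fibroblast-like sums the deviations of the 2 libraries of an age correlated by 0.226 to 0.589. DESeq2 1.42.0 was an alternative. Others changed the size factors, the filter, the block, doublets, the UMI minimum, the clustering, the cells by sex marker, the clusters and the libraries included. On simulated counts the genotype test recovered 59% of 2-fold and 92.9% of 4-fold changes in fibroblast-like sums of 14225 genes, 22.6% and 93.8% in endothelial-like sums of 9931 genes, and 40.4% and 93.7% in macrophage-like sums of 4727 genes. With 200 genes changed in each simulation, there were 17, 4 and 8 false calls in the same order. These shares are no measure of power for a difference at 1 age alone, for which the genotype test has no term. Intervals are exact at 95% and, like the floor of 3 counts, cover counting error only. The permutation test used log2(CPM + 1).

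All 10 genes are reported. Of the pathway lists, Ifng, Ifngr1, Ifngr2, Jak1, Jak2, Socs1 and Pdcd1 were named, and in each other list the 4 genes of smallest p in the fibroblast-like genotype comparison. A signalling gene is not reported here. The most similar genes were the 10 of highest correlation among those of at least 10 CPM on average. The 10 genes, the lists and the tests were chosen with earlier results of these data known.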

Additional observations from a re-analysis of the deposited data

Results flagged for a closer look

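At 8 weeks the ratio of K/B.g7 to B.g7 ran in opposite directions in fibroblast-like cells with Xist alone and in those with Y-linked UMIs alone. Among cells with Xist alone the median ratio of the 10 genes was 3.00, with all 10 above 1 (1.31 to 8.78). Among cells with Y-linked UMIs alone it was 0.352, with all 10 below 1 (0.111 to 0.573). The second value rests on 91 B.g7 cells against 1574 K/B.g7 cells, and the difference between the 2 kinds of cells was not tested, with 1 library per genotype at that age. Of the 91 cells, 9 lay in the cluster led by Mmp3 and Lcn2, in which the 10 genes are high, and all 91 together held 40 UMIs of Gbp4 and 131 of Iigp1. Outside that cluster the median ratio was 1.60 in the Xist cells and 0.653 in the Y-linked cells (82 in B.g7). None of the 91 barcodes (0) was among those kept in the 8-week K/B.g7 library. Within the 8-week K/B.g7 library the Xist cells had the higher level in 10 of 10 genes (median ratio of Xist to Y-linked cells 1.91), where 8.82% of the Xist and 2.41% of the Y-linked cells lay in the Mmp3 and Lcn2 cluster. Outside that cluster the Xist cells were higher in 5 of 10 genes (median 0.997). Within the 8-week B.g7 library they were higher in 0 of 10 (median 0.234), and outside the cluster in 0 of 9 (median 0.499). In the other 4 libraries this median lay between 1.01 and 1.24. The counts of genes above or below 1 in these cells carry no share over all genes.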

How the results depend on the processing

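Of 333 alternative values of counts, medians and shares, 257 stayed within 1.5 times the reported count or within the spread and 76 did not. Of the values of single genes, 567 kept direction and call, 44 changed sign, 25 came to pass the threshold and 27 no longer did. The causes were not tested. Depth limits Cd274 and Gbp4 in fibroblast-like cells and all genes in macrophage-like cells at 3 weeks.

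The genotype comparison with no replicate block called 0 of the 10 genes in every class fitted. With no filter on low counts it called 1 gene each in T cell-like, mesothelial-like and mural cells, and leaving out the libraries of an age gave 0 to 1 in mural cells. The age comparisons with no filter called 9 (8 against 3 weeks), 8 (25 against 8) and 4 (25 against 3) in fibroblast-like cells, 7 (25 against 8) in endothelial-like cells, 8 (25 against 8) in macrophage-like cells, 6 (8 against 3) and 2 (25 against 8) in lymphatic cells and 2 (25 against 8) in mural cells. DESeq2 called 8, 5 and 1 in fibroblast-like cells for those 3 contrasts, 2 (8 against 3) and 1 (25 against 8) in macrophage-like cells, 1 (8 against 3) and 0 (25 against 3) in lymphatic cells and 1 (8 against 3) in mural cells. With a minimum of 1000 UMIs, or with doublets kept, 1 gene was called in lymphatic cells between 3 and 25 weeks.

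Fibroblast-like cells with Y-linked UMIs alone gave 9, 7 and 1 calls for the 3 age contrasts. From 8 to 25 weeks, Xist cells alone gave 0 calls, as did cells outside the Mmp3 and Lcn2 cluster. Leaving out 1 library at a time gave 2 to 9 (8 against 3), 0 to 9 (25 against 8) and 0 to 3 (25 against 3) calls in fibroblast-like cells, 0 to 8 and 0 to 5 in endothelial-like cells and 1 to 7 and 1 to 6 in macrophage-like cells for the first 2 contrasts. Within 1 genotype the median log2 difference was 0.92 to 2.59 (8 against 3) and -1.99 to -0.65 (25 against 8) in fibroblast-like cells, with 0.26 to 0.69 for 25 against 3, and in endothelial-like cells 1.59 to 1.78, -1.41 to -1.02 and 0.44 to 0.82.

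The median ratio of K/B.g7 to B.g7 at 8 weeks was 3.00 in Xist cells, 0.352 in Y-linked cells and 1.36 without the Mmp3 and Lcn2 cluster of the clustering on all genes. Outside the Mmp3 and Lcn2 cluster made without the 10 genes it was 1.53 in all cells, 1.60 in Xist cells and 0.653 in Y-linked cells. In single clusters of the clustering on all genes it was 1.35 (led by Lamb1 and Pcsk6), 0.977 (Inmt and Cxcl14), 1.05 (Cxcl14 and Hsd11b1) and 1.29 (Igfbp3 and Myoc), and it was close to the value of the class in those led by Cst6 and Col8a1 (2.07), Chad and Fmod (2.30) and Prss35 and Wif1 (2.35). The share of fibroblast-like cells with at least 2 genes at 8 weeks was 1.36% (B.g7) and 5.48% (K/B.g7) at 1000 UMIs and 12.1% and 20.3% unthinned, and the mean number of the 10 genes detected per cell was 0.309 and 0.419 at 1000 UMIs and 0.955 and 1.25 unthinned.

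The fitted log2 genotype difference in fibroblast-like cells changed sign in Y-linked cells alone, for Gbp2 (-0.61), Gbp3 (-0.31), Gbp4 (-1.85), Gbp5 (-0.67), Gbp7 (-0.58), Irgm1 (-0.38), Igtp (-0.90) and Iigp1 (-0.83). Without the Mmp3 and Lcn2 cluster it changed sign for Gbp2 (-0.10), Gbp5 (-0.35), Igtp (-0.36) and Iigp1 (-0.28), and the difference of Irf1 from 3 to 8 weeks was -0.075. With libraries left out it ranged from -0.24 to 0.47 for Gbp2, -0.27 to 0.54 for Gbp3, -0.60 to 0.37 for Gbp5, -0.15 to 0.48 for Gbp7, -0.71 to 0.67 for Igtp, -0.71 to 0.68 for Iigp1 and -0.80 to 0.035 for Irf1. In endothelial-like cells it ranged from -0.46 to 0.49 for Iigp1 and -0.40 to 0.13 for Irf1, and the difference of Irf1 from 3 to 8 weeks from -0.22 to 0.44 there and -0.19 to 0.79 in fibroblast-like cells. None of these differences of genotype passed the threshold.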

Other observations

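The cells led by Wif1 and Prss35 also held a larger share of Iigp1 than of cells in the older libraries. In B.g7 at 25 weeks they were 20.5% of the fibroblast-like cells with 46.2% of the Iigp1 UMIs, and in K/B.g7 9.21% with 31.7%. At 8 weeks they held 23.7% of the Iigp1 UMIs in B.g7 and 9.17% in K/B.g7. Gbp5, at 3 weeks, had 62.3% of its UMIs in these cells in B.g7 and 36.5% in K/B.g7. These shares were noticed in the data and carry no test.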
